A study of Mus musculus with 12 samples.

Results

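The genes described here serve the uptake of cobalamin and bile acids at the end of the small intestine, and comprise 10 of the 48526 genes in the deposited count files. They are Cubn, Amn and Dab2 of the cubilin uptake complex, Slc10a2, Fabp6, Slc51a and Slc51b of bile acid transport, and Nr1h4, Nr0b2 and Fgf15 of the bile acid response. The set was listed by name and was chosen by a measured value, the low level of Cubn in the input libraries of the knockout animals. The difference between genotypes in input is therefore given below as a description, with no p-value for these genes, and nothing is read from how many of them were called there. The files give Ensembl identifiers, and all 10 were matched to symbols after the version suffix was removed.

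RNA was measured in 12 libraries from 4 female mice aged 3 months. In 2 animals, called DKO, deletion of KAT2A and KAT2B was induced by intraperitoneal tamoxifen at 100 mg/kg on 4 days, and the 2 controls received the ethanol and corn oil vehicle alone. Epithelial cells were released with EDTA 2 days after the last injection. The labels disagree on the segment: the sample titles name the whole intestine, while the extraction protocol names the proximal part of the small intestine, and the protocol was followed here. The injections differed with the genotype, so that genotype and tamoxifen exposure cannot be told apart. From every animal unselected RNA (input) was sequenced beside RNA bound by J2 and by K1, antibodies against double-stranded RNA. The labels name neither the Cre driver nor the cells in which it acts. Nothing in them separates the litters or days of the animals, so every p-value below measures the spread between these few samples.

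Cubilin is a large extracellular receptor that binds the intrinsic factor-cobalamin complex, and it reaches the apical membrane only together with amnionless, the product of Amn. Dab2 is an endocytic adaptor that links such receptors to clathrin. Bile acids enter ileal enterocytes through the sodium-dependent transporter encoded by Slc10a2, are carried in the cytosol by the binding protein Fabp6, and leave across the basolateral membrane through the heterodimer of Slc51a and Slc51b. The nuclear receptor FXR, encoded by Nr1h4, senses them and induces Fabp6, Slc51a, Slc51b, the repressor Nr0b2 (SHP) and the hormone Fgf15, which signals to the liver to lower bile acid synthesis. In mice Slc10a2, Fabp6 and Fgf15 are known as genes of the ileum.

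The libraries differed in depth. Counts assigned to genes came to 10307281 to 11474107 in input, 13308021 to 16139531 in the pulldowns of controls and 2220291 to 5826361 in those of DKO animals. Levels are given as CPM, counts scaled to library size after TMM normalisation. Kat2a was at 17.7 and 16.4 CPM in control input and at 7.0 and 10.9 CPM in DKO input, and Kat2b at 28.6 and 24.7 CPM against 9.84 and 8.38 CPM. Both genes were lower in DKO input (edgeR quasi-likelihood adjusted p = 0.0205 for Kat2a and 0.000632 for Kat2b). All 8 enterocyte markers had counts in every library, with a summed level of 19650 to 20030 CPM in control input and 17320 to 22500 CPM in DKO input, while the 6 fibroblast markers summed to at most 4.92 CPM in any input library. The second DKO animal stood apart in the pulldowns, where its enterocyte markers summed to 4131 CPM in J2 and 6249 CPM in K1 against 19680 and 20230 CPM in the first DKO animal and 13070 to 16250 CPM in controls. Reads aligned at several places made up 5.54% to 6.56% of listed reads in control pulldowns. In the first and second DKO animals they made up 15.8% and 29.5% in J2 and 25.9% and 46.7% in K1. The TMM factors of these DKO J2 libraries were 0.674 and 1.21. The share of such reads thus differed with genotype in the pulldowns, and its part in the pulldown results was not tested.

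The windows upstream of the RefSeq start of 4 of these genes are shown because the genes differ in direction: Cubn was lower in DKO, while Slc10a2, Slc51b and Nr1h4 were higher. Each is the 250 bases before the transcript start in the RefSeq table for GRCm38.p6, 5′ to 3′ on the gene's strand, at chr2:13491877-13492126 (minus strand) for Cubn, chr8:5105288-5105537 (minus strand) for Slc10a2, chr9:65422774-65423023 (minus strand) for Slc51b and chr10:89506659-89506908 (minus strand) for Nr1h4. RefSeq starts differ from the GENCODE loci given further on: the Nr1h4 window lies wholly inside that gene's longer GENCODE locus, and those of Slc10a2 and Slc51b overlap the 5′ end of theirs. Capitals mark every match, on either strand, to the 5 motifs searched.
Cubn: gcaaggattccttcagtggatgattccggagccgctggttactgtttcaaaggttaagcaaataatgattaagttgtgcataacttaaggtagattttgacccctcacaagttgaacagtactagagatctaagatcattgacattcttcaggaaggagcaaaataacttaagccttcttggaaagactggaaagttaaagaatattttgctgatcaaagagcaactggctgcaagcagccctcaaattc
Slc10a2: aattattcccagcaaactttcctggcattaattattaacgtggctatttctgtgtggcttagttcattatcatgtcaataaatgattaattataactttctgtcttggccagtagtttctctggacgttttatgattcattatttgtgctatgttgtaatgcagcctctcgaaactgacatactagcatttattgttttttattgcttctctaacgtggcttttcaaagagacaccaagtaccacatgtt
Slc51b: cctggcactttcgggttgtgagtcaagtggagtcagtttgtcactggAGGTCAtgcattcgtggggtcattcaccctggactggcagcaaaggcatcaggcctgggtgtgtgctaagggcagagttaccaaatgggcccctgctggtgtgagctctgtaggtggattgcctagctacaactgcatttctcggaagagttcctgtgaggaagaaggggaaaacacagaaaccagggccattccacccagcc
Nr1h4: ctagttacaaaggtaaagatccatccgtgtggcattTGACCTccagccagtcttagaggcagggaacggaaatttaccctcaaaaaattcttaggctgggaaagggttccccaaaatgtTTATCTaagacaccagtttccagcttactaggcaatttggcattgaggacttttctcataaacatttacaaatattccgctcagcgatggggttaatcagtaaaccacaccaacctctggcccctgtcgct
The motifs were the nuclear receptor hexamer AGGTCA, its inverted repeat (AGGTCA, then any 1 base, then the reverse complement of AGGTCA), the HNF4-type sequence CAAAGTCCA, the GATA-type sequence AGATAA and TATAAA, where AGGTCA also lies within the inverted repeat. Of the 32851 windows of this length in the table, 14% held AGGTCA, 0.00609% the inverted repeat, 0.384% CAAAGTCCA, 9.99% AGATAA and 12.4% TATAAA. Windows were in the table for 9 of the 10 genes, all but Fgf15. AGGTCA was found in those of Slc51a, Slc51b and Nr1h4, AGATAA in that of Nr1h4, and TATAAA in those of Fabp6 and Nr0b2. None of the 5 motifs was found in the windows of Cubn, Amn, Dab2 and Slc10a2, and neither the inverted repeat nor CAAAGTCCA was found in any of the 10 windows of these genes. These are letter matches in a short window and show no binding.

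Per kilobase of exon, the levels in control input differed widely among these genes. Slc51a was highest with a mean of 59.5 CPM per kb, followed by Amn at 42.2 and Slc51b at 40.5, whose ranges over the 2 animals overlapped, then by Cubn at 22.7 and Nr1h4 at 17.3, which also overlapped, and by Nr0b2 at 5.90 CPM per kb. The ileal genes were near the limit of detection, with Fabp6 at 0.226 and Slc10a2 at 0.116 CPM per kb and overlapping ranges. Dab2 was at 0.0157 CPM per kb, and Fgf15 had 0 counts in both animals. Since the titles and the protocol name different segments, whether ileal cells were among those sampled is not settled by the labels, and the word ileal here describes where these genes are known to act. In DKO input the order changed at its ends: Slc51b at 68.8 CPM per kb stood beside Slc51a at 62.3 with overlapping ranges, and Cubn, at 0.445 CPM per kb, overlapped with Fgf15 at 0.742 and lay above only Dab2.

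**Figure D1:**
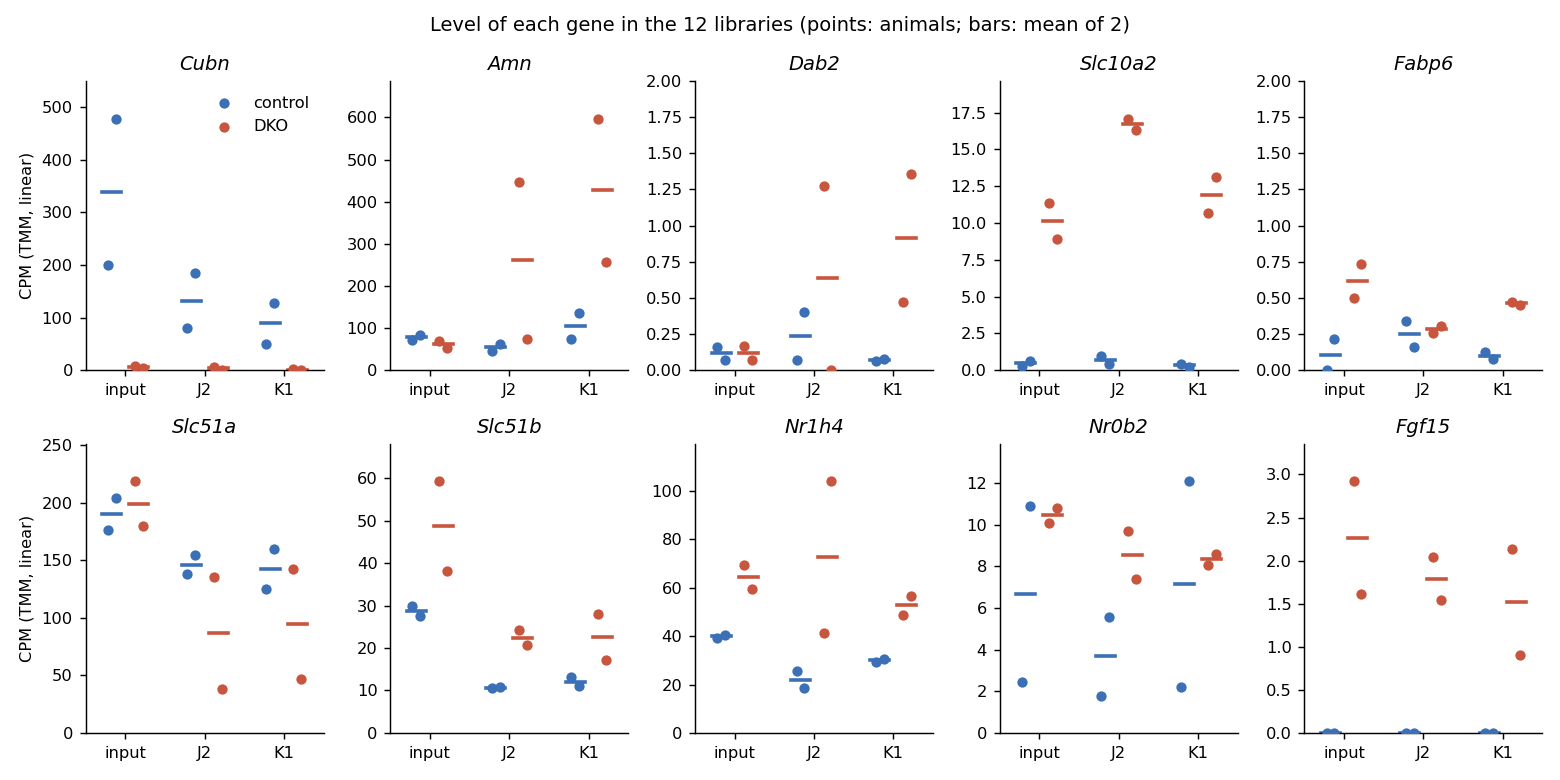
CPM (linear axis from 0, a scale of its own in each panel) of the 10 genes in input, J2 and K1 libraries, with 1 point per animal and a bar at the mean of the 2 animals, blue for control and red for DKO. Cubn falls from 199 and 478 CPM in control input to 8.51 and 4.78 CPM in DKO input, Slc10a2 and Fgf15 are seen mainly in DKO, and Amn reaches its highest values, 447 and 597 CPM, in the pulldowns of the first DKO animal.

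Cubn (ENSMUSG00000026726.10, chr2:13276338-13491813, minus strand, GRCm38) was the member with the largest fall. In input it was at 199 CPM in the first control animal and 478 CPM in the second, and at 8.51 and 4.78 CPM in the DKO animals. The groups were far apart, although the 2 controls themselves differed by 2.40-fold. The log2 difference was -5.64 (SE 0.49), ranking 11 from the lowest of 15088 genes tested. In bulk samples, fewer cells that express a gene and less RNA per cell cannot be told apart.

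The pulldown libraries showed the same direction. The choice of genes had not used them, but they come from the same 4 animals and are not independent of that choice. Cubn was at 79.3 and 184 CPM in control J2 libraries and at 6.37 and 0.925 CPM in DKO J2 libraries. In K1 it was at 50.1 and 128 CPM in controls and at 1.66 and 0.906 CPM in DKO, the latter from 7 and 2 counts. The control animal with the higher input value was also the higher in both pulldowns. Cubn was lower in DKO by edgeR's quasi-likelihood test in J2 (log2 difference -5.11, SE 0.88, adjusted p = 0.033) and in K1 (-5.83, SE 0.63, adjusted p = 0.00223). The call held in each of the 10 alternative settings of either comparison. In K1 Cubn passed the filter on low counts only through the controls.

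Amn (ENSMUSG00000021278.7, chr12:111271095-111276426, plus strand), which encodes the obligate partner of cubilin, showed no fall of that size. In input it was at 71.5 and 84.1 CPM in controls and at 70.5 and 53.1 CPM in DKO, a log2 difference of -0.30 (SE 0.16). The first DKO animal lay beside the first control, and with scaling over the input libraries alone the groups overlapped. In the K1 libraries Amn was at 74.7 and 136 CPM in controls against 597 and 258 CPM in DKO, and it was higher in DKO (2.19, SE 0.46, edgeR adjusted p = 0.0146). Without the first control animal the K1 call was lost (1.81, adjusted p = 0.161).

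In J2 the 2 DKO animals disagreed on Amn. Its level was 447 CPM in the first and 74.6 CPM in the second, against 46.2 and 63.3 CPM in controls. The second DKO animal was thus only a little above the controls, and the difference did not pass the test (log2 2.26, SE 0.82, edgeR adjusted p = 0.119). Without the second DKO animal the difference was 3.09 with an adjusted p of 3.55e-07, and without the first it was 0.53. It passed with DESeq2 (2.35, adjusted p = 0.00891), with the looser filter (2.16, adjusted p = 0.00681) and in the fit of all 12 libraries (2.25, adjusted p = 0.0267).

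Dab2 was close to absent in every library. It had 1 or 2 counts in each input library of either genotype and 0 to 5 counts in each pulldown, and it did not pass the filter on low counts in any comparison. The summed counts were 3 in control and 3 in DKO input. The ratio of summed counts, DKO over control and scaled to library size, was 1.03 in input (exact 95% counting interval 0.138 to 7.71), 3.13 in J2 (0.756 to 12.3) and 11.5 in K1 (1.89 to 121), the last from 5 counts against 2. In input and J2 a difference was not detectable at this depth, and the K1 interval covers counting error only and not the spread between animals.

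Slc10a2 (ENSMUSG00000023073.2, chr8:5083219-5105351, minus strand), the apical bile acid importer, was the transporter with the largest rise. It had 4 and 9 counts in the control input libraries and 136 and 121 in the DKO ones, or 0.318 and 0.649 CPM against 11.3 and 8.89 CPM. The log2 difference in input was 4.38 (SE 0.36). In J2 its level was 0.961 and 0.405 CPM in controls and 17.1 and 16.3 CPM in DKO, and in K1 it was 0.432 and 0.224 CPM against 10.7 and 13.1 CPM. In all 3 kinds of library both DKO values lay above both control values.

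In the pulldowns Slc10a2 was higher in DKO by edgeR's quasi-likelihood test in J2 (log2 4.62, SE 0.59, adjusted p = 0.0287) and in K1 (5.28, SE 0.57, adjusted p = 0.00223). The control libraries of Slc10a2 were below the filter on low counts in all 3 kinds of library, so it was tested only through the DKO libraries where it is high. Its calls are therefore a description and not independent support. The J2 call was lost without the second control animal (4.09, adjusted p = 0.09). Even in DKO the gene stayed a minor transcript, at 2.44 CPM per kb in input against 62.3 CPM per kb for Slc51a.

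Fgf15 (ENSMUSG00000031073.6, chr7:144896531-144900953, plus strand), the enterocyte hormone induced by FXR, was seen in DKO libraries alone. It had 0 counts in all 6 control libraries. The DKO input libraries held 35 and 22 counts, the J2 libraries 8 and 5, and the K1 libraries 9 and 2. Against a floor of 3 counts in each control library, the level in DKO was at least 9.97-fold higher in input and 7.98-fold in J2, which are bounds for counting error only. For K1 no fold is given, since 1 DKO library was itself below that floor. Antisense genes on the opposite strand overlap 24.9% of the exon bases (Gm26793) and 0.85% (Gm39119), and counts made without strand cannot separate them.

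Fabp6, the cytosolic bile acid carrier, stayed near the limit of detection. It had 0 and 3 counts in control input and 6 and 10 in DKO input. The ratio of the summed counts, scaled to library size, was 5.51 with an exact 95% counting interval of 1.58 to 29.5. In J2 the summed counts were 7 in control and 2 in DKO, and in K1 they were 3 and 3. Fabp6 did not pass the filter on low counts in any comparison, and it had no test.

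The 2 subunits of the basolateral exporter are given side by side. Slc51a (ENSMUSG00000035699.8, chr16:32474504-32487879, minus strand) was at 176 and 204 CPM in control input and at 218 and 180 CPM in DKO input, so the groups overlapped and the log2 difference was 0.10 (SE 0.15). Slc51b (ENSMUSG00000053862.6, chr9:65412714-65422955, minus strand) was at 29.8 and 27.6 CPM in control input and at 59.3 and 38.2 CPM in DKO input. Both DKO values of Slc51b were above both controls, with a log2 difference of 0.80 (SE 0.20). Genes on the opposite strand share exon bases with both: Pcyt1a covers 17.7% of Slc51a and Rasl12 12.8% of Slc51b, so both values carry that uncertainty.

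In the pulldowns both DKO values of Slc51b again lay above both controls. Slc51b was at 10.6 and 10.8 CPM in control J2 and at 24.2 and 20.7 CPM in DKO J2, and at 13.1 and 11 CPM in control K1 and 28 and 17.2 CPM in DKO K1. The difference passed edgeR's test in K1 (log2 1.1, SE 0.33, adjusted p = 0.0441) and not in J2 (1.12, SE 0.35, adjusted p = 0.0858). The K1 call was lost in 8 of 10 alternative settings, for example with DESeq2 (1.16, adjusted p = 0.0507), with the replicate number as a block (1.07, adjusted p = 0.0682), without the first or the second control animal (1.23, adjusted p = 0.29, and 0.93, adjusted p = 0.429) and without the first DKO animal (0.76, adjusted p = 0.0811), while the J2 difference passed without the first DKO animal (1.03, adjusted p = 0.00484) or the second (1.24, adjusted p = 0.000609).

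Slc51a in the pulldowns was divided between the DKO animals. It was at 138 and 155 CPM in control J2 and at 135 and 38.2 CPM in DKO J2, and at 125 and 160 CPM in control K1 and 142 and 46.6 CPM in DKO K1. The first DKO animal was close to the controls and the second was far below them. The log2 difference did not pass the test in J2 (-0.74, SE 0.59, edgeR adjusted p = 0.406) or in K1 (-0.43, SE 0.44, edgeR adjusted p = 0.5). Without the first DKO animal it passed in both (-1.85, adjusted p = 6.99e-05, and -1.36, adjusted p = 0.00527). In the second DKO animal the summed enterocyte markers were also low in these libraries, at 4131 and 6249 CPM, and their part in the result was not tested.

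Nr1h4 (ENSMUSG00000047638.15, chr10:89454234-89533585, minus strand), which encodes FXR, was moderately higher in DKO. In input it was at 39.4 and 40.4 CPM in controls and at 69.2 and 59.5 CPM in DKO, a log2 difference of 0.73 (SE 0.13). In K1 it was at 29.5 and 30.6 CPM in controls against 48.9 and 56.6 CPM in DKO, and the difference passed the test (1.01, SE 0.27, edgeR adjusted p = 0.0312). In J2 it was at 25.5 and 18.5 CPM in controls against 41.3 and 104 CPM in DKO, which did not pass (1.82, SE 0.57, edgeR adjusted p = 0.0871). The groups did not overlap in any of the 3 kinds of library. The K1 call was lost without the first control animal (0.98, adjusted p = 0.363) or the second (0.99, adjusted p = 0.327), with the looser filter (0.81, adjusted p = 0.0748), in the fit of all 12 libraries (0.81, adjusted p = 0.122) and without TMM, so 5 of 10 alternative settings ended it. The J2 difference passed without the first DKO animal (2.31, adjusted p = 5.22e-05) or the second (0.96, adjusted p = 0.00323) and with the replicate number as a block (1.65, adjusted p = 0.034). It also passed with DESeq2 (1.85, adjusted p = 0.0184), the looser filter (1.59, adjusted p = 0.0112) and the fit of all 12 libraries (1.72, adjusted p = 0.00479).

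Nr0b2 (ENSMUSG00000037583.2, chr4:133553376-133556536, plus strand), the FXR-induced repressor SHP, varied more between the control animals than between genotypes. It was at 2.47 CPM in the first control input library and 10.9 CPM in the second, a 4.41-fold difference, and at 10.1 and 10.8 CPM in DKO. The same control animal was low in J2 (1.78 against 5.58 CPM) and in K1 (2.22 against 12.1 CPM), while DKO libraries lay between 7.40 and 9.69 CPM there. The log2 difference was 0.67 (SE 0.53) in input, and it did not pass the test in J2 (1.28, SE 0.65, edgeR adjusted p = 0.22) or K1 (0.43, SE 0.74, edgeR adjusted p = 0.699). Without the first control animal the input difference was -0.03, and without the second it was 2.11.

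Counted together, 8 of the 10 genes passed the filter on low counts in input, with Dab2 and Fabp6 below it, and 4 were called higher (Slc10a2, Slc51b, Fgf15 and Nr1h4) and 1 lower (Cubn), where 35.9% of the 15088 genes tested were called (18.8% higher and 17.1% lower). That comparison chose the set through Cubn, and Slc10a2 and Fgf15 were tested in it only through their DKO libraries, so nothing is read from the count. In J2, 7 genes were tested, since Fgf15 also fell below the filter, and 1 was called higher (Slc10a2) and 1 lower (Cubn), beside 12.2% of 13181 genes (6.02% higher and 6.16% lower). In K1, 4 of 7 were called higher (Slc10a2, Amn, Slc51b and Nr1h4) and 1 lower (Cubn), beside 27.1% of 12888 genes (13.2% higher and 13.9% lower). In both pulldowns Slc10a2 passed the filter only through DKO, and in K1 Cubn passed only through the controls. The median log2 difference over all genes tested was 0.00 in input, 0.03 in J2 and -0.02 in K1. Scaling by library size alone, without TMM, moved these medians to -0.13, -0.06 and -0.39, and the genes called higher from 2841 of 5421 to 2138 of 5074 in input, from 794 of 1606 to 446 of 1364 in J2 and from 1695 of 3487 to 1148 of 4184 in K1. Under that scaling Cubn and Slc10a2 remained called in both pulldowns, while the K1 differences of Slc51b and Nr1h4 no longer passed (0.71, adjusted p = 0.146, and 0.65, adjusted p = 0.131).

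**Figure D2:**
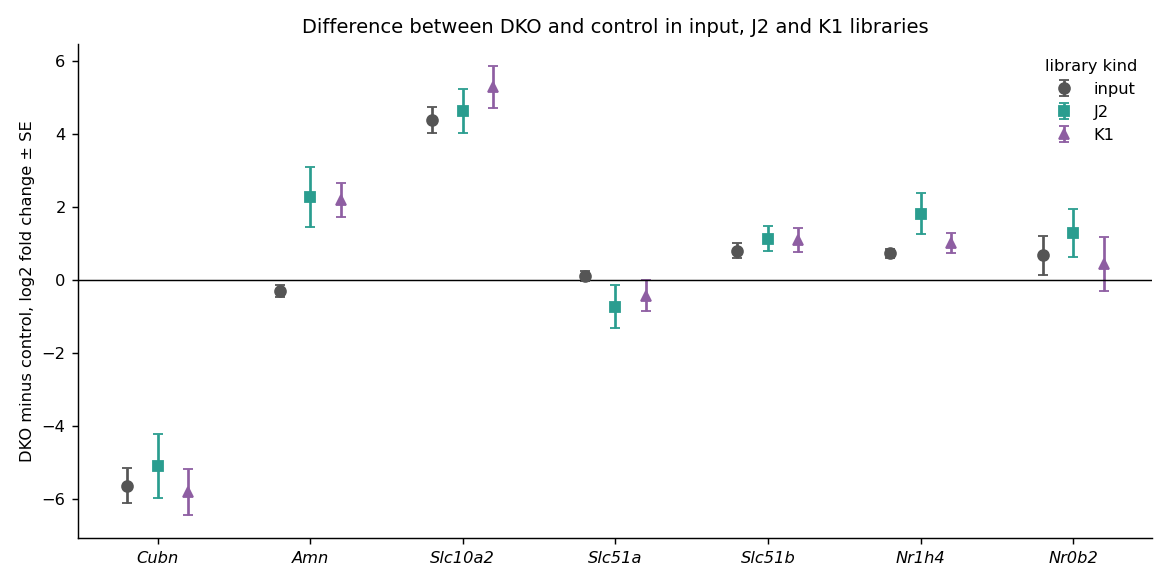
DKO minus control log2 fold change with its standard error for the 7 genes tested in all 3 kinds of library (circles input, squares J2, triangles K1). Cubn lies between -5.83 and -5.11, Slc10a2 between 4.38 and 5.28, and Amn is at -0.30 in input but at 2.26 in J2 and 2.19 in K1.

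Whether these transcripts were more or less abundant in the pulldowns than in input, relative to others, was measured by pulldown minus input. No library here is a pulldown with a control antibody, so binding by J2 or K1 was not separated from RNA recovered without it. The word uptake below names this difference alone. Values per animal use the input of the same animal, while the tests compare group means in a fit without an animal term. In controls, Slc51b was lower in J2 than in input (log2 -1.42, SE 0.26, edgeR adjusted p = 0.0073) and in K1 than in input (-1.33, SE 0.27, edgeR adjusted p = 0.00346). In DKO it was again lower in J2 (-1.09, SE 0.27, edgeR adjusted p = 0.0223) and in K1 (-1.15, SE 0.28, edgeR adjusted p = 0.0106). All 8 same-animal differences lay between -1.47 and -0.88. Leaving out either control animal lost the J2 calls in both genotypes (for controls -1.34, adjusted p = 0.378, without the first and -1.46, adjusted p = 0.384, without the second, and for DKO -1.11, adjusted p = 0.144, and -1.24, adjusted p = 0.113) and the K1 call in controls (-1.42, adjusted p = 0.123, and -1.24, adjusted p = 0.168).

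Cubn was also taken up less by K1. Its K1 minus input value was -1.99 and -1.90 in the control animals and -2.23 and -2.17 in the DKO animals, so all 4 animals lay close together. The difference passed in controls (-2.01, SE 0.48, edgeR adjusted p = 0.00826) and in DKO (-2.33, SE 0.81, edgeR adjusted p = 0.0462), where it rests on 7 and 2 counts. For J2 it was -1.33 and -1.37 in controls and -0.41 and -2.15 in DKO, which did not pass (edgeR adjusted p = 0.168 and 0.491). With the animal as a block the J2 difference passed in controls (-1.35, edgeR adjusted p = 0.0374). In controls it was -1.48 without the first DKO animal and -1.35 without the second. The K1 calls were lost in controls without the first or the second control animal (-1.99, adjusted p = 0.0742, and -2.04, adjusted p = 0.0562) and in DKO without the first or the second DKO animal (-2.54, adjusted p = 0.401, and -2.43, adjusted p = 0.203). The fit of all 12 libraries lost both (-1.93, adjusted p = 0.0538, in controls and -2.26, adjusted p = 0.11, in DKO), and thinning lost the DKO call (-1.94, adjusted p = 0.117).

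The uptake of Amn was measured in the same way. Its K1 minus input value was 0.06 and 0.69 in the control animals and 3.08 and 2.28 in the DKO animals. K1 against input did not pass in controls (0.35, SE 0.39, edgeR adjusted p = 0.501) and passed in DKO (2.71, SE 0.41, edgeR adjusted p = 0.0012). The difference between genotypes, tested as an interaction, was 2.36 (SE 0.55, edgeR adjusted p = 0.0391), and both DKO animals lay above both controls. This was the 1 call among the 8 genes tested, beside 5.47% of 15908 genes called (1.37% higher and 4.10% lower). It was lost without the first control animal (2.08, adjusted p = 0.644), without the second (2.68, adjusted p = 0.297) and in a fit of all 12 libraries (2.36, adjusted p = 0.251). Without the first DKO animal Slc51a also passed this K1 test (-1.59, adjusted p = 0.0083).

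For J2 the same-animal values of Amn were -0.63 and -0.41 in controls and 2.66 and 0.49 in DKO. The control animals lay below 0 and the DKO animals above it, and the interaction of 2.61 (SE 0.95) did not pass (edgeR adjusted p = 0.14). Without the second DKO animal it was 3.19 (adjusted p = 0.000891), and without the first 1.01 (adjusted p = 0.0227), and it passed with the looser filter (2.30, adjusted p = 0.00132). None of the 8 genes passed the J2 interaction in edgeR's test, beside 2.71% of 15923 genes (0.772% higher and 1.94% lower). Of the 8, 1 gene (Amn) was under an unadjusted threshold of 0.05 in that test, and DESeq2 also called 0. Without the first DKO animal Slc51a (-1.84, adjusted p = 0.000325) and Nr1h4 (1.67, adjusted p = 0.00152) passed as well. The interactions contain the input comparison that chose the set, and for Amn that comparison showed little difference.

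The calls against input, with those given above included, are set beside the share of all genes called. In controls the J2 comparison called 1 of 8 (Slc51b, lower), beside 29.8% of genes called (15.2% higher and 14.6% lower), and the K1 comparison 2 of 8 (Cubn and Slc51b, lower), beside 39.8% (19.7% higher and 20.1% lower). In DKO, J2 called 1 of 8 (Slc51b, lower), beside 25.7% (12.2% higher and 13.4% lower), and K1 called 1 higher (Amn) and 3 lower (Cubn, Slc51a and Slc51b), beside 35.6% (14.6% higher and 21.0% lower). Slc51a in DKO had a K1 minus input value of -1.15 (SE 0.40, edgeR adjusted p = 0.0473), made of -0.62 in the first animal and -1.94 in the second, and the call was lost without the first control animal (-1.18, adjusted p = 0.116) or the second (-1.17, adjusted p = 0.109) and in the fit of all 12 libraries (-1.07, adjusted p = 0.19). Fgf15 passed the filter in these fits through its DKO counts alone, and its control values are 0 throughout.

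Macrophage and dendritic cell, fibroblast and endothelial markers summed to more in DKO than in control pulldowns, while leukocyte markers overlapped between genotypes there. The 9 macrophage and dendritic cell markers summed to 7.88 and 8.43 CPM in control input and to 24.8 and 14.9 CPM in DKO input, and to 49.7 and 32.2 CPM in DKO K1 against 6.29 and 6.93 CPM in control K1. The 6 fibroblast markers summed to 172 and 21.9 CPM in DKO J2 and 206 and 75.2 CPM in DKO K1, against 2.34 to 40.4 CPM in control pulldowns. The 5 other leukocyte markers summed to 48.8 to 57.2 CPM in control and 33.2 to 36.4 CPM in DKO input. In J2 they summed to 37.3 to 41.8 CPM in control and 34.2 to 75.6 CPM in DKO. In K1 they summed to 32.1 to 36.8 CPM in control and 32.3 to 39.4 CPM in DKO. The 4 endothelial markers summed to 6.12 and 13 CPM in DKO J2 against 3.36 and 1.86 CPM in control J2, and to 5.70 and 6.34 CPM in DKO K1 against 2.22 and 2.76 CPM in control K1. Of the macrophage and dendritic cell markers, 4 of 9 were tested in input, where Csf1r, Cd68 and Mrc1 were called higher and Itgax lower. Over all genes tested 18.8% were called higher there and 17.1% lower. In K1 all 6 tested were called higher, beside 13.2% of all genes, and in J2 0 of 3 were called. The 9 macrophage and dendritic cell markers together held only 102 and 93 counts in control K1, against 209 and 71 in DKO K1. Some could thus have passed the filter on low counts only through DKO, so nothing is read from how many were called in K1. No fibroblast or leukocyte marker tested was called in either pulldown. Of the endothelial markers, 1 of 2 tested was called higher in K1 and 0 of 2 in J2. In K1 the 4 endothelial markers together held only 36 and 37 counts in controls and 24 and 14 in DKO. C1qa, a defining macrophage marker, was too low to be tested, with 1 to 4 counts in each input library. The part of these markers in the Amn result was not tested.

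Amn and Slc10a2 stand at opposite ends of base composition. The longest transcript of Amn is 62.9% G and C, at percentile 99.3 of 9728 genes (median 49.7%), and that of Slc10a2 is 35.7%, at percentile 0.4, while Cubn at 46.4% is at percentile 31.8. The part of base composition in the uptake by the antibodies was not tested. By a blastn comparison at 97% identity over 100 bases, Slc51a shares 22% of its transcript with Pcyt1a and Cubn 3.3% with Gm13270, both of which overlap it on the opposite strand, and the other 8 genes share none.

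**Figure D3:**
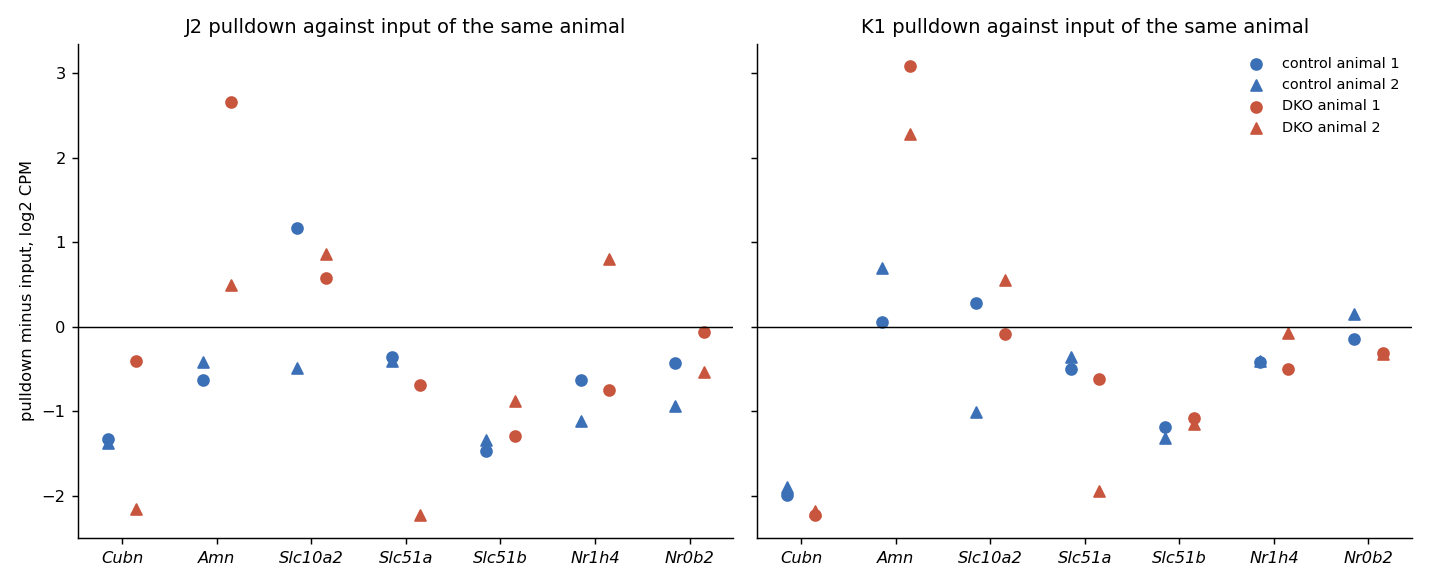
Pulldown minus input log2 CPM of the same animal for 7 of the genes, J2 on the left and K1 on the right, with circles for the first and triangles for the second animal of each genotype. Amn in DKO lies at 2.66 and 0.49 for J2 and at 3.08 and 2.28 for K1, and Slc51b lies below 0 in every animal.

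The wider bile acid pathway did not move in 1 direction. Of 29 further genes of bile acid transport, synthesis and nuclear receptor control, 26 were tested in input, and 4 rose and 10 fell, where 18.8% of all genes tested rose and 17.1% fell. Their median log2 difference was -0.18 beside 0.00 over all genes. Abcc4, an exporter of bile acids and cyclic nucleotides, rose from 1.59 and 2.52 CPM to 20.7 and 18.2 CPM (3.26, SE 0.25, edgeR adjusted p = 0.000186). Fgfr4, the liver receptor for FGF15, rose from 3.42 and 2.81 CPM to 18.8 and 19.3 CPM (2.65, SE 0.20, edgeR adjusted p = 0.000173). Vdr, the vitamin D receptor, which also binds the bile acid lithocholate, fell from 600 and 587 CPM to 133 and 172 CPM (-1.92, SE 0.16, edgeR adjusted p = 0.000258), and Abcc2, an apical exporter of conjugated organic anions, fell from 805 and 863 CPM to 397 and 305 CPM (-1.21, SE 0.17, edgeR adjusted p = 0.00165).

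Among the regulators in that list, the 7 nuclear receptors were grouped after their values were seen. Nothing is therefore read from how many of the receptors were called, and 17.1% of all genes tested fell in input. In input 4 of these receptors fell: Vdr, Rxra (-1.13, edgeR adjusted p = 0.000563), which encodes a partner of FXR, Rxrb (-0.57, adjusted p = 0.013) and Nr5a2 (-0.49, adjusted p = 0.0239). The other 3 did not pass, with Hnf4a at 0.08 (SE 0.16, edgeR adjusted p = 0.719), the sterol sensor Nr1h3 at 0.00 (adjusted p = 0.981) and Nr1i2 at 0.31 (adjusted p = 0.159). The GATA factors Gata4 at 0.04 (adjusted p = 0.83) and Gata6 at -0.02 (adjusted p = 0.934) did not pass either. The other genes of the list that rose were Baat, which conjugates bile acids to amino acids (1.96, adjusted p = 0.00359), and the bile salt exporter Abcb11, which had 0 and 1 counts in control against 32 and 20 in DKO and was tested only through DKO. Of the hepatocyte markers, Alb had 0 to 8 counts in each input library, Cyp7a1 and Cyp8b1 had 0, and the 4 markers summed to 0.649 to 1.35 CPM in control and 26.3 to 28.3 CPM in DKO input, nearly all of it from Tat.

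In the pulldowns, 2 of 24 bile acid genes rose in J2 (Abcc4 4.36, edgeR adjusted p = 0.0287, and Fgfr4 4.27, edgeR adjusted p = 0.0287), the only calls there, beside 12.2% of all genes called, while 3 rose and 4 fell in K1, beside 27.1%. Abcc4 and Fgfr4 rose there again (4.92, adjusted p = 0.00183, and 3.96, adjusted p = 0.00291) and Vdr fell (-2.49, adjusted p = 0.00463). The median was -0.37 in J2 and -0.27 in K1, beside 0.03 and -0.02 over all genes.

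Of 24 endocytic and cobalamin genes listed around cubilin, 22 were tested in input, and 3 rose and 5 fell, with a median of -0.05. Those 8 of 22 are near the 35.9% called over all genes, so the count is not a result about these genes. Abcc1, which exports cobalamin from cells among other substrates, rose from 10.5 and 9.37 CPM to 41.8 and 33.5 CPM (1.96, SE 0.16, edgeR adjusted p = 0.000251). Pdzk1, a scaffold protein of the brush border, fell (-0.81, SE 0.15, edgeR adjusted p = 0.00492), and Clcn5, an endosomal chloride-proton exchanger needed for cubilin recycling in the kidney, fell (-0.70, SE 0.12, edgeR adjusted p = 0.00356). Core parts of the clathrin machinery had values near 0, with Ap2m1 at -0.02 (adjusted p = 0.913), Eps15 at 0.04 (adjusted p = 0.802) and Ap2b1 at -0.09 (adjusted p = 0.584), as did the albumin receptor Fcgrt at -0.08 (adjusted p = 0.724). Lrp2, which encodes the partner receptor megalin, and Cblif, which encodes intrinsic factor, did not pass the filter on low counts.

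Genes that mark segments of the intestine give the setting of the Cubn and Slc10a2 values. Of 20 genes of proximal enterocytes, 1 rose and 12 fell in input, with a median of -0.63, and of 20 genes of distal enterocytes, 5 rose and 7 fell, with a median of -0.10, where 18.8% of all genes tested rose and 17.1% fell. Lct, the lactase gene, fell from 2207 and 3068 CPM to 59.8 and 69.4 CPM (-5.31, SE 0.24, edgeR adjusted p = 5.32e-05), and Gstm3, a glutathione transferase, fell from 823 and 796 CPM to 53.5 and 45.4 CPM (-3.99, SE 0.16, edgeR adjusted p = 3.73e-05). Trpv6, the apical calcium channel, fell from 7.0 and 7.14 CPM to 0.750 and 0.662 CPM (-3.27, SE 0.29, edgeR adjusted p = 0.000302), and Apoc3 fell by 1.84 on the log2 scale (SE 0.17, edgeR adjusted p = 0.00032). With a mean of 9 counts in DKO, Trpv6 passed the filter on low counts only through the controls, where it is high. Its call is therefore a description. Other proximal genes had values near 0 and overlapping groups, among them Apoa4 (0.12, adjusted p = 0.747), Rbp2 (-0.16, adjusted p = 0.573), Creb3l3 (0.16, adjusted p = 0.565) and the glucose transporter Slc5a1 (0.16, adjusted p = 0.621).

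Distal genes likewise moved both ways. Tmigd1 rose from 5.01 and 2.59 CPM to 46.5 and 23.7 CPM (3.25, SE 0.40, edgeR adjusted p = 0.000969), and Muc3, a membrane mucin, rose from 849 and 636 CPM to 3237 and 2335 CPM (1.95, SE 0.23, edgeR adjusted p = 0.00088). Naaladl1 fell (-1.40, SE 0.16, edgeR adjusted p = 0.000797), as did the phosphate transporter Slc34a2 (-1.33, SE 0.25, edgeR adjusted p = 0.00548). Dpep1 (-0.04, adjusted p = 0.832), Vnn1 (0.05, adjusted p = 0.879), Clec2h (-0.16, adjusted p = 0.457) and Enpep (-0.24, adjusted p = 0.237) did not pass. In J2 the calls in both lists together were 3 proximal genes, which fell, beside 12.2% of all genes called. In K1, where 27.1% were called, the calls were 7 of 19 proximal genes, which fell, and 4 distal genes, of which 2 rose and 2 fell.

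**Figure D4:**
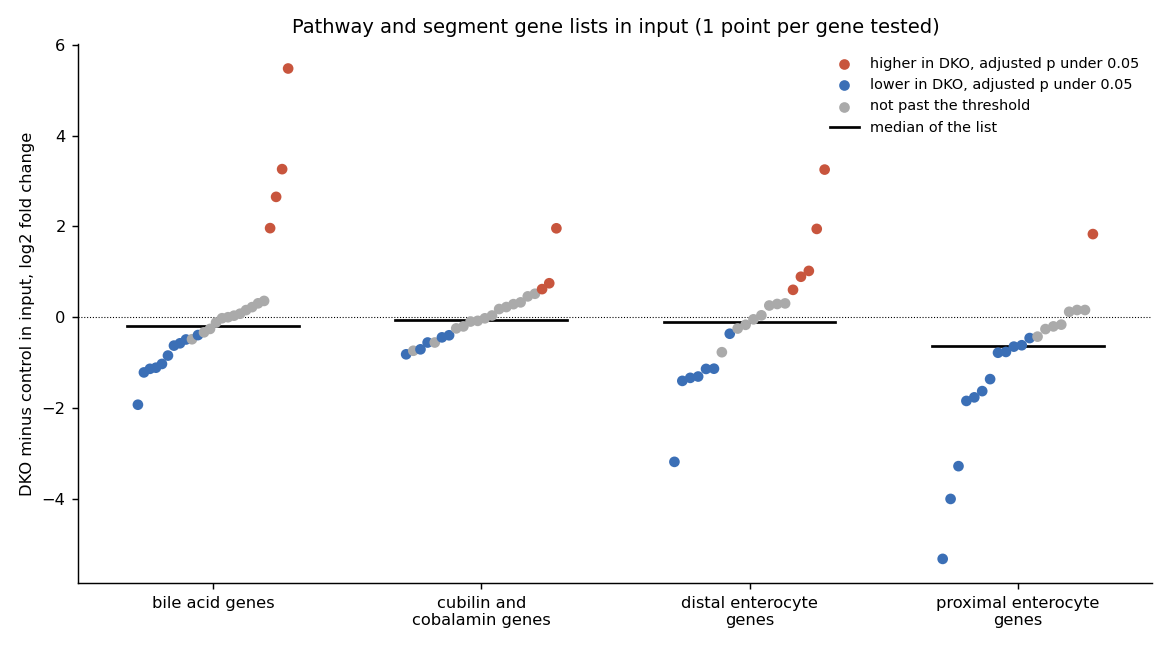
DKO minus control log2 fold change in input for every tested gene of the 4 lists, ordered within each list, red where higher and blue where lower at adjusted p under 0.05, with a black line at the list's median. The medians are -0.18, -0.05, -0.10 and -0.63 from left to right, and the highest bile acid point is the fitted value of Abcb11, which has 0 and 1 counts in control.

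The genes whose pattern over the 12 libraries was most like that of Cubn were found by the root mean square difference of log2 CPM, each gene taken relative to its own mean. Among 9372 genes with a mean of at least 50 counts, the closest was Lct at 0.55, followed by Fras1 at 0.92, Slc5a4b at 0.97, Cyp2c55 at 1.03 and Gstm3 at 1.08, where the median of all genes was 2.98. Lct encodes lactase, Fras1 an extracellular matrix protein, Slc5a4b a member of the sodium-glucose transporter family, Cyp2c55 a cytochrome P450 and Gstm3 a glutathione transferase. As with Cubn, the second control animal was above the first in input for Lct (3068 against 2207 CPM), Fras1 (38.6 against 18.5 CPM), Slc5a4b (124 against 75.3 CPM) and Cyp2c55 (131 against 96.6 CPM), but not for Gstm3 (796 against 823 CPM). These genes were picked for their likeness, and no test is given.

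**Figure D5:**
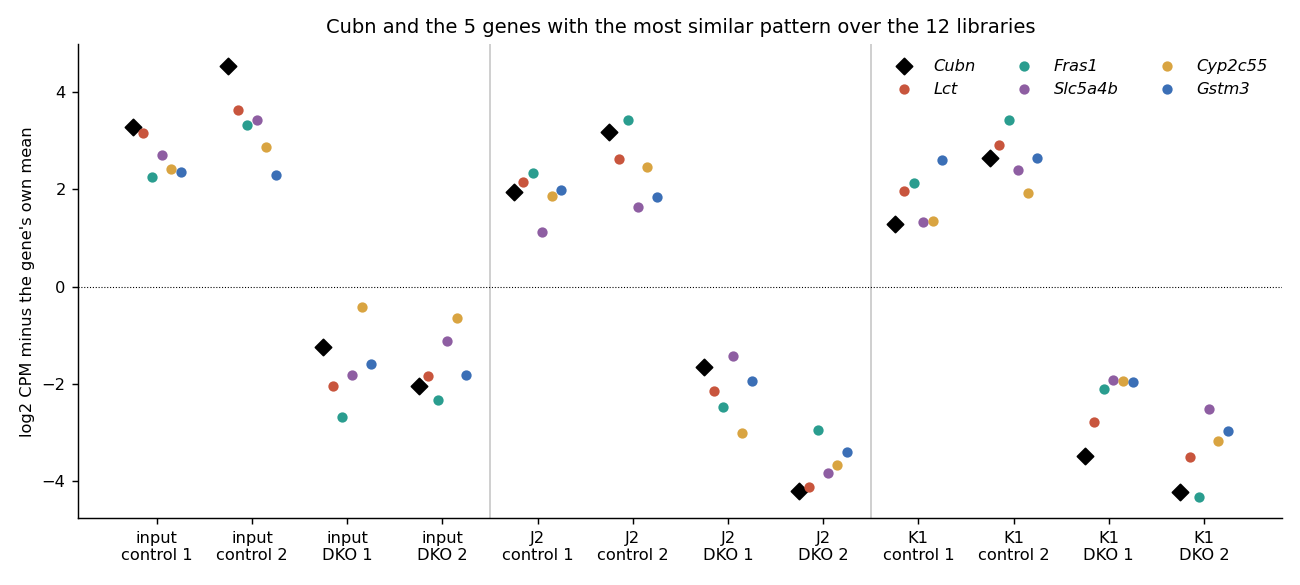
Log2 CPM minus the gene's own mean over 12 libraries for Cubn (black diamonds) and the 5 genes with the smallest root mean square difference from it, with the libraries along the horizontal axis. All 6 genes lie above their mean in the 6 control libraries and below it in the 6 DKO libraries, and Lct is the closest at 0.55.

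The genes most like Amn were Mvp at 0.40, Myh14 at 0.40, Sdha at 0.42, Pkm at 0.45 and Aldh16a1 at 0.46, where the median of all genes was 1.34. Mvp encodes the major vault protein, Myh14 a nonmuscle myosin, Sdha a subunit of succinate dehydrogenase, Pkm pyruvate kinase and Aldh16a1 an aldehyde dehydrogenase family member. Their K1 minus input difference between genotypes was 0.95, 1.09, 1.49, 1.03 and 1.24 in the same order, against 2.36 for Amn, given as a description since the likeness was measured on these libraries. Among the 10 genes themselves, the closest pair was Nr1h4 and Slc51b at 0.58, and Slc10a2 and Fgf15 differed by 0.73.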

How the data were processed

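Per the labels' protocols, total RNA of input and of dsRNA pulldowns was made into libraries with random hexamers, molecular identifiers and removal of ribosomal RNA. The authors deposited raw read counts for every gene, 1 file per library, and per the labels strand was ignored. The submitters' processing notes name STAR 2.7.10b, SAMtools 1.17, UMI-tools 1.1.4 and HTSeq 2.0.2 with the builds mm10 and GRCm38.p4. The annotation release is not given in the sources used here. The 5 closing rows that name no gene were dropped before scaling and testing. Reads outside genes made up 6.76% to 27% of listed reads, ambiguous reads 3.65% to 6.11% and reads at several places 5.54% to 46.7%. Counts of this kind rise with gene length, so levels are compared between genes only per kilobase of GENCODE M21 (GRCm38) exons.

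Tests on these counts used edgeR 4.0.16 under R 4.3.3 (quasi-likelihood F-test after TMM, filterByExpr with a minimum of 10, Benjamini-Hochberg adjusted p under 0.05 over all genes tested). Genotypes were set against each other in input, J2 and K1 separately (4 libraries, 2 residual degrees of freedom), and pulldown with input, and its difference between genotypes, in fits of 8 libraries (4 residual degrees of freedom). The log2 CPM shown used a prior count of 2. Counting intervals are exact at 95% and cover counting error only. No main fit had an animal term. Alternatives were DESeq2 1.42.0, no TMM, a looser filter, 1 fit of all 12 libraries, thinning to equal depth, a replicate block and leaving out each animal in turn. The replicate block was the replicate number between genotypes and the animal for pulldown against input. The scripts were tested on simulated data.

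Same-numbered input and pulldown libraries carry the same animal tag in the labels, and their deviations from the group mean correlated at 0.208 to 0.494. Numbers across genotypes name different animals (0.0261 in input, -0.088 in J2 and -0.097 in K1). Replicates of a group differed beyond counting noise (chi-square per degree of freedom 9.78 to 84.4). The genes and lists were chosen with earlier results of these data known. Of each list, up to 4 genes with the largest called input difference (mean of at least 50 counts, groups apart) and up to 4 with the smallest were named, and some that met this rule are not reported here.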

Additional observations from a re-analysis of the deposited data

Results flagged for a closer look

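For Amn the enrichment by K1, as pulldown minus input, differed between genotypes by 2.36 on the log2 scale (interaction in edgeR's quasi-likelihood test, SE 0.55, adjusted p = 0.0391), with 3.08 and 2.28 in the DKO animals against 0.06 and 0.69 in the controls. For J2 the difference was 2.61 (SE 0.95, adjusted p = 0.14 in the same test), and here both DKO animals had values above 0 (2.66 and 0.49) and both controls below it (-0.63 and -0.41). Both were picked out because the genotypes differed in the same contrast, the first past the threshold of the test and the second by the opposite direction of every animal although the test was not passed.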

How the results depend on the processing

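In 10 alternative settings the called differences of Cubn (lower) and Slc10a2 (higher) between DKO and control held their side of the threshold in both pulldowns, except Slc10a2 in J2 without the second control animal. As reported, Slc10a2 entered these tests only through DKO, and Cubn entered the K1 test only through the controls, so the settings give no independent support. Beside the counts of genes called as reported (5 in input, 2 in J2 and 5 in K1 for DKO against control), a fit of all 12 libraries called 3, 6 and 5, DESeq2 called 4 in J2, a looser low filter 5 in J2, and scaling without TMM 3 in K1. For J2 against input in controls (1 as reported) the low filter and the replicate block each called 2. In DKO (1 as reported), DESeq2, scaling without TMM and the fit of all 12 libraries each called 2, and the low filter 3. The low filter called 1 in the J2 interaction (0 as reported). The fit of all 12 libraries called 1 for K1 against input in controls (2 as reported), 2 in DKO (4 as reported) and 0 in the K1 interaction (1 as reported). The cause of these shifts was not tested. Over all genes the counts moved as well, in the fit of all 12 libraries from 5421 to 1675 in input, from 1606 to 5984 in J2 and from 870 to 59 in the K1 interaction, and with the block from 432 to 0 in the J2 interaction. Leaving out each animal in turn assumes that the lone sample left in a group varies like the other groups. It changed the number of calls among these genes and over all genes, so those numbers are not read as a result about these genes.

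Directions turned only for differences that had not passed as reported. Without TMM, Slc51a in input was -0.035 and Slc10a2 in K1 against input of DKO -0.16. With the low filter, Nr1h4 in J2 against input of DKO was -0.035, the J2 interaction of Slc10a2 -0.049 and Nr0b2 in K1 against input of controls 0.0013. With counts thinned to equal depth, the J2 interaction of Slc10a2 was -0.027 and the K1 interaction of Cubn 0.33. In the fit of all 12 libraries, Nr0b2 in K1 against input of controls was 0.083. Leaving out each animal gave ranges of -0.032 to 0.23 for Slc51a and -0.028 to 2.11 for Nr0b2 in input, -1.36 to 0.15 for Slc51a and -0.35 to 2.04 for Nr0b2 in K1, -0.65 to 1.58 for Slc10a2 in J2 against input of controls, -0.72 (passing, adjusted p = 0.034, without the second DKO animal) to 0.69 for Nr1h4 in J2 against input of DKO, -1.57 to 0.37 for Slc10a2 and -0.20 to 0.060 for Nr0b2 in K1 against input of controls, -0.17 to 0.41 for Slc10a2 in K1 against input of DKO, -0.98 to 0.96 for Cubn and -0.98 to 1.38 for Slc10a2 in the J2 interaction, and -0.25 to 1.69 for Slc10a2 and -0.11 to 0.28 for Nr1h4 in the K1 interaction. Blocking changed 3 of the gene calls, which are printed beside them, and no other. The block was the animal for pulldown against input and the replicate number for DKO against control. Numbers do not pair animals across genotypes, so changes under the block on replicate number rest on an arbitrary pairing. At 2220291 to 5826361 counts, DKO pulldowns hold few reads of Dab2, Fabp6 and Fgf15, none of which passed the filter for the test of DKO against control there.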
